A study of Homo sapiens with 10 samples.

Results

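The genes described here are those whose transcripts were most abundant at day 38 of the differentiation of human thyroid organoids, in cells sorted for NKX2-1GFP, and clearly less abundant on every other day sampled. They were chosen by their measured level: CPM, counts per 1000000 counts, were the count of a gene over the summed counts of its library, and a gene was a member if the lower of its 2 day 38 values was at least 5 CPM and at least 2 times the highest value among the 8 libraries of days 16, 23, 31 and 45. Of 28265 genes in the count tables, 38 met the rule. Since the rule used the day 38 values, the height of these genes at day 38 is a description and was not tested, and tests are given for differences among the other days. The same rule centred on another day selected 95 genes for day 16, 4 for day 23, 26 for day 31 and 212 for day 45.

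Thyroid follicular cells make thyroid hormone by iodinating thyroglobulin, under control of thyroid-stimulating hormone (TSH), which acts on its receptor largely through cyclic AMP. Cells short of oxygen, or under hormones and growth factors that raise glucose use, are known to transcribe glucose transporters and glycolytic enzymes. They are also known to transcribe DDIT4, a regulator of growth signalling, and BHLHE40, a transcriptional repressor. Glucocorticoids such as dexamethasone act through a nuclear receptor and, in epithelia that absorb sodium, are known to raise subunits of the epithelial sodium channel.

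The libraries came from a human embryonic stem cell line (labelled ESIBIe003-A-6) that carries GFP at 1 allele of NKX2-1 and a doxycycline-inducible transgene for NKX2-1 and PAX8, the transcription factors that together specify thyroid cells. Bulk RNA-seq was done on 2 libraries a day, each from at least 3 pooled wells by the methods, from which 10000 GFP-positive cells were sorted. All 5 days share this line, transgene and gate. Day 16 cells had been kept in basal differentiation medium by the methods (their label names c-AMP), days 23 and 31 are labelled c-AMP and had received 300 µM 8-br-cAMP, day 38 is labelled TSH DEX (1 mU/ml recombinant TSH and 50 nM dexamethasone by the methods, given from day 30 by the study's results text), and day 45 is labelled TSH SB, for which the study adds 10 µM of the TGF-beta receptor inhibitor SB431542. By the study's results text, dexamethasone stayed in the medium with SB431542 up to day 45. With TSH and dexamethasone from day 30, the day 31 libraries may have had a day of them despite their label, and with SB431542 given as starting on day 37 in one place and on day 38 in another, the day 38 libraries may have met it. The medium changed along with the day, and day and medium cannot be told apart. Cells kept on cAMP to the later days were not analysed here. The gate takes every cell with NKX2-1 promoter activity, which lung and brain cells also have. In the sorted cells NKX2-1 ranged from 55.2 to 167 CPM and PAX8 from 448 to 760.0 CPM over the 10 libraries. Counts per gene do not separate transcripts of the transgene from those of the cells' own NKX2-1 and PAX8. TG (thyroglobulin) stood at 11.1 and 11.6 CPM on day 16, 216 and 187 on day 23, 214 and 225 on day 31, 4969.6 and 4590.1 on day 38, and 7569 and 7183 on day 45. TG was thus present throughout and most abundant on day 45. In bulk RNA, fewer cells of a type and less RNA per cell cannot be told apart.

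Summed counts ran from 7247268 to 10333933 per library, so that the floor of 3 counts lies between 0.290 and 0.414 CPM. Together the 38 genes took 0.121 and 0.0845% of all counts in the 2 libraries of day 16, 0.0855 and 0.0913% on day 23, 0.124 and 0.130% on day 31, 0.496 and 0.490% on day 38, and 0.177 and 0.171% on day 45. The 2 libraries of day 38 were close to each other in these genes: their gap was 11.4% of the mean for the median member and 48.6% for LINC00609, the widest. The lower day 38 value exceeded the highest other library by 2.33 times at the median, with a range from 2.0 to 10.4, and by at least 3 times in 7 members. Just inside the limit stood ACTG2 (2.0 times), KCNE4 (2.01) and FSTL5 (2.03), and just outside it CHL1 (1.95), MGP (1.94) and PDGFA (1.93). The limit therefore cuts a continuous range. Without the first library of day 38 the rule gives 60 genes, and without the second library of day 45 it gives 57, with all 38 among them in both cases. By the mean of a day, day 45 was the second-highest day for 19 members, day 31 for 7, day 16 for 6 and day 23 for 6.

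**Figure D1:**
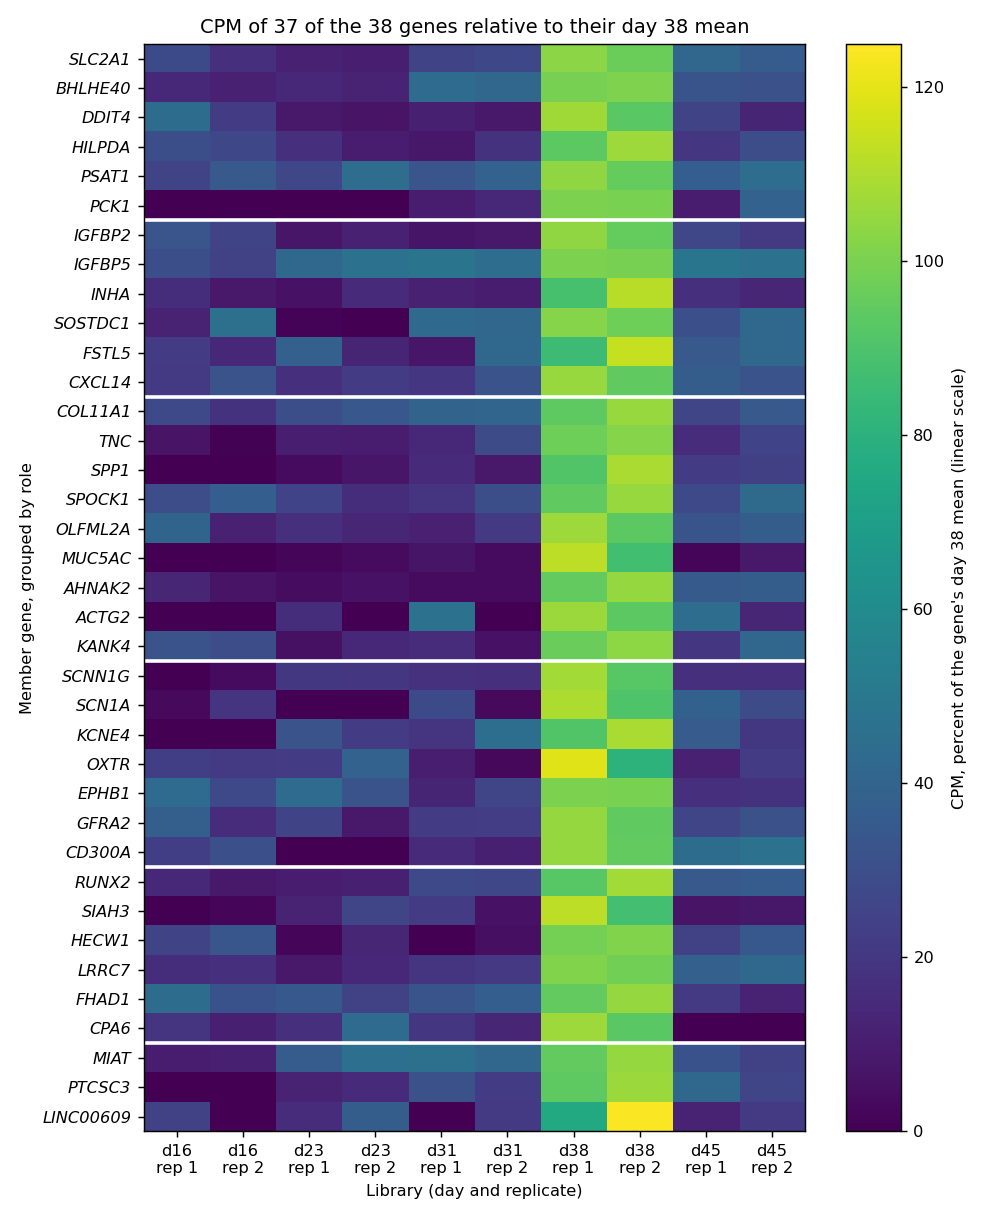
Heat map of 37 of the 38 genes (rows, grouped by role, white lines between groups) in the 10 libraries (columns), coloured by CPM as a percent of the gene's mean at day 38 on a linear scale. The day 38 columns are brightest by the rule of selection, and the largest spread between those 2 columns is that of LINC00609 (a gap of 48.6% of the mean).

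A group of 6 members handles glucose, oxygen shortage and nutrients. SLC2A1, the glucose transporter GLUT1, stood at 431 and 262 CPM on day 16, 181 and 165 on day 23, 393 and 420.0 on day 31, 1592 and 1498 on day 38, and 634 and 559 on day 45. Both day 38 libraries were thus far above the rest, and both day 45 libraries stayed above both of day 31. Per kilobase of exon, SLC2A1 had the highest day 38 level of the group and of all members (234 CPM per kb). BHLHE40, a transcriptional repressor of the circadian clock that also responds to low oxygen, stood at 34 and 28.1 CPM on day 16, 33.1 and 29.2 on day 23, 106 and 100.1 on day 31, 239.5 and 243 on day 38, and 78.4 and 74.3 on day 45. Its climb came in 2 steps, with days 16 and 23 alike, day 31 higher, and day 45 back below day 31. DDIT4, an inhibitor of mTORC1 induced by stress and by glucocorticoids, stood at 41.6 and 21 CPM on day 16, 8.01 and 6.01 on day 23, 10.3 and 8.31 on day 31, 101 and 87.8 on day 38, and 24.1 and 12.2 on day 45. The values of day 16 lay above those of days 23 and 31, and the 2 libraries of day 45 were 18.2 CPM on average, with both above both of day 31.

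HILPDA, a lipid droplet protein induced by low oxygen, had 12.6 and 11.4 CPM on day 16, 7.2 and 4.09 on day 23, 3.4 and 7.81 on day 31, 39.4 and 44.8 on day 38, and 8.42 and 12.5 on day 45. PSAT1, an enzyme of serine synthesis, had 15.2 and 20.6 CPM on day 16, 15.9 and 26.4 on day 23, 19.7 and 23.3 on day 31, 62.1 and 56.9 on day 38, and 22.4 and 26.7 on day 45. PCK1, the cytosolic PEPCK of gluconeogenesis, was counted at 0 and 0 CPM on day 16, 0 and 0 on day 23, 0.877 and 1.24 on day 31, 8.81 and 8.77 on day 38, and 0.828 and 3.44 on day 45. PCK1 was thus at 0 counts in all 4 libraries of days 16 and 23 and at about 8.8 CPM in both of day 38, which is at least 23-fold over the floor of 3 counts per library on day 16.

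Since SLC2A1 belongs to the hypoxia and glycolysis list of 13 genes, the other 12 genes of that list were followed too. They were not chosen by the rule, and 9 of the 12 were called higher and 0 lower at day 38 against day 31 (edgeR, where 8.80% of all genes tested were called higher and 6.23% lower). The count of 9 was also found by DESeq2 and without TMM factors, although dropping those factors lowers the share of higher calls among all calls from 58.5 to 33.3%, with a median log2 shift of -0.20 over all genes. From day 38 to day 45, 8 of the 12 were called lower and 0 higher, against 6.35% and 4.85% of all genes. The median log2 change over the 12 was 1.66 from day 31 to day 38 and -0.90 from day 38 to day 45, beside 0.00 and -0.02 over all genes. For the direction with no edgeR call in either comparison, 0 of the 12 had an unadjusted p under 0.05 and DESeq2 called 0. VEGFA, the angiogenic growth factor, changed by 2.97 (SE 0.12, edgeR adjusted p = 3.94e-19) on the log2 scale from day 31 to day 38, EGLN3, an oxygen-sensing prolyl hydroxylase, by 3.0 (SE 0.26, edgeR adjusted p = 4.37e-11), and HK2, which starts glycolysis, by 2.5 (SE 0.22, edgeR adjusted p = 5.92e-11). LDHA, PGK1, PDK1, NDRG1, BNIP3 and ENO1 were called too, with log2 changes of 2.05, 1.95, 1.66, 1.66, 1.58 and 1.42. ADM, CA9 and ANKRD37 did not pass, at 0.78, 1.41 and 0.81. Of the 9 that rose, NDRG1 alone was not called in the return, at -0.29 (SE 0.17, edgeR adjusted p = 0.336).

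On day 16, PDK1 and LDHA were above their day 31 level and NDRG1 was below it. PDK1, which keeps pyruvate out of the mitochondrion, had 239 and 219 CPM on day 16, 67.5 and 55.5 on day 23, 103 and 105 on day 31, 268 and 297 on day 38, and 82.4 and 76.2 on day 45. LDHA, lactate dehydrogenase A, had 771 and 691 CPM on day 16, 216 and 205 on day 23, 413 and 376 on day 31, 1441 and 1370.3 on day 38, and 644 and 673 on day 45. Both were thus lower on days 23 and 31 than on day 16, and PDK1 was not called between days 31 and 45 (edgeR adjusted p = 0.28). Day 31 against day 16, 7 of the 12 were called lower and 1 (NDRG1) higher, beside 5.87% and 7.00% of all genes. Day 45 against day 31, 9 were called higher and 0 lower (0 by DESeq2 and 0 at an unadjusted p under 0.05), beside 11.3% and 11.1% of all genes. The medians over the 12 were -0.51 and 1.09. The summed level of all 13 was 3178 and 2677 CPM on day 16, 1142 and 1140.0 on day 23, 2117 and 2092 on day 31, 7466 and 7043 on day 38, and 3803 and 3700.3 on day 45. Oxygen in the cultures was not among the measurements.

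**Figure D2:**
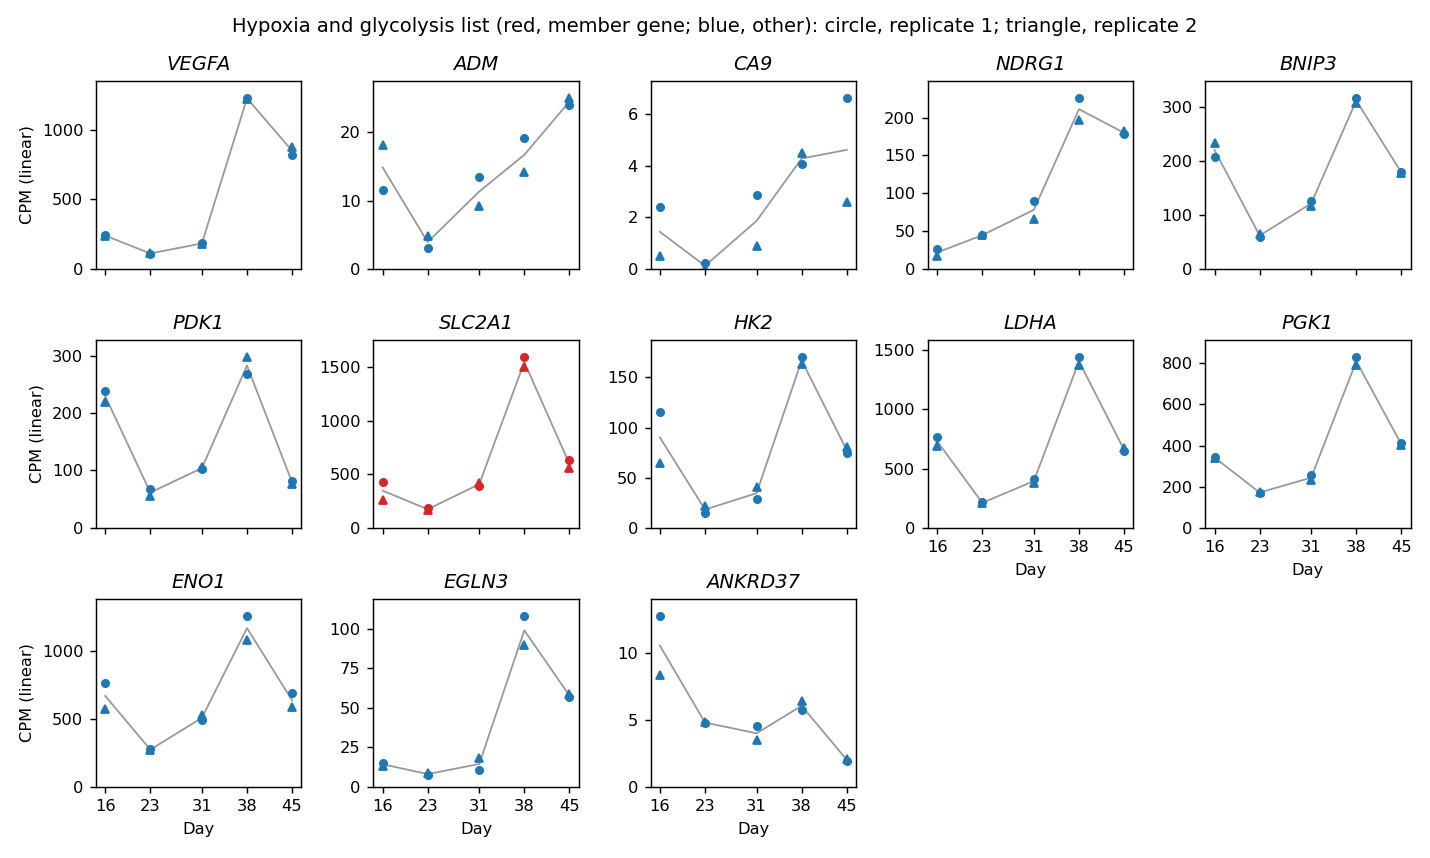
CPM of the 13 genes of the hypoxia and glycolysis list (1 panel a gene, linear axes from 0) against day, with both replicates as points and their mean as a line. Of the 12 genes outside the selection (blue), 9 were called higher from day 31 to day 38, and SLC2A1 (red) is the only member among the 13.

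The sequence before the start of these genes was read from RefSeq (GRCh38.p14, windows from 250 bases before to 50 after an annotated start), which has windows for 27 of the 38 members, 39 windows in all. Among those not matched were CPA6, GFRA2, HILPDA, KCNE4, MUC5AC, PCK1, SCNN1G, SIAH3, SOSTDC1 and SPOCK1. Each window was searched on both strands for 11 short motifs, and letters that match one are in capitals. The 3 windows shown first belong to the oxygen and glucose genes above, ACTG2 is shown for its muscle-gene motifs and INHA for its AP-1 letters.
SLC2A1, chr1:42958819-42959118 (minus strand): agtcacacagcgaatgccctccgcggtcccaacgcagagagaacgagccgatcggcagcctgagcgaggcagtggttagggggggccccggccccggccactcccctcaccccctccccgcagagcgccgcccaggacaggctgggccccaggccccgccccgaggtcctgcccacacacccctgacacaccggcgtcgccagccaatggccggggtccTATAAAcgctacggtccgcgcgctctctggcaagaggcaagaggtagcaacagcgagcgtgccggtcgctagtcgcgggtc
BHLHE40, chr3:4979187-4979486 (plus strand): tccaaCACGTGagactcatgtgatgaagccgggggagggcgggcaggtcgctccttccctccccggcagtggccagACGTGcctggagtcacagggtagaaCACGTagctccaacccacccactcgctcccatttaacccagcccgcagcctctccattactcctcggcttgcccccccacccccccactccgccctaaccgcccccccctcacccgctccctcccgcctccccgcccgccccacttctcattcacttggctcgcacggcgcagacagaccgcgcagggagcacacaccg
DDIT4, chr10:72273674-72273973 (plus strand): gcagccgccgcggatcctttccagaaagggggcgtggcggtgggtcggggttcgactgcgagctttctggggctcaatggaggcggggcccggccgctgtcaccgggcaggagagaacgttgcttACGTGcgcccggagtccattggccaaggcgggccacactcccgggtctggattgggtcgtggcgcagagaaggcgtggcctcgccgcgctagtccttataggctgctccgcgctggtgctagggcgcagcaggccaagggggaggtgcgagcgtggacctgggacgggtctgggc
ACTG2, chr2:73892758-73893057 (plus strand): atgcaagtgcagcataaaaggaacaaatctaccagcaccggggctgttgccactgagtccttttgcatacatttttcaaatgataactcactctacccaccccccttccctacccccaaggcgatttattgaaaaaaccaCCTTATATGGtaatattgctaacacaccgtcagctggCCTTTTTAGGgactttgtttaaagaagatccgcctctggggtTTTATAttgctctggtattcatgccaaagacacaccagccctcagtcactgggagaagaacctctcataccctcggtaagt
INHA, chr2:219572060-219572359 (plus strand): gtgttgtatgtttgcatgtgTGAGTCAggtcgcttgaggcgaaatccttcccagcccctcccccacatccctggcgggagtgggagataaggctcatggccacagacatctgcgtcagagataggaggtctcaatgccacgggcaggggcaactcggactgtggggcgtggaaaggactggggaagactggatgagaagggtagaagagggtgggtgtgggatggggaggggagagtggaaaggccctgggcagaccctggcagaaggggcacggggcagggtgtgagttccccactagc

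The capitals mark a TATA box (TATAAA) in SLC2A1, the core of the hypoxia response element (ACGTG) in BHLHE40 and DDIT4, a pair of CArG boxes and a TATA box in ACTG2, and the AP-1 letters TGANTCA in INHA. BHLHE40 held 4 matches to the hypoxia core, of which the first 2 are the 2 strands of 1 E-box (CACGTG). The hypoxia core and the E-box were added to the search after the values were seen. The core was in 4 of the 39 windows (10.3%; BHLHE40, CD300A, DDIT4 and IGFBP2) against 21.4% of all 35116 windows, and the E-box in 1 (2.56%) against 7.26%. AP-1 letters were in 7 windows (17.9%) against 7.71%, and these belong to 6 members: CXCL14, FHAD1, INHA, PTCSC3, RUNX2 and SCN1A, of which FHAD1 has a pair of overlapping windows. A TATA box was in 2 windows (5.13%) against 11.5%, and a CArG box in 2 (5.13%; ACTG2 and IGFBP2) against 1.29%. In the 100 bases nearest the start, taken from both sides of it, AP-1 letters and CArG boxes were in 0 windows. The hypoxia core was in 1 there and the TATA box in the same 2. The AP-1 letters of CXCL14 and the nearer CArG box of ACTG2 lay less than 100 bases before the start, but outside that stretch. None of the 39 windows held the glucocorticoid response element (AGAACA, any 3 letters, TGTTCT; 0.00285% of all windows), the cAMP response element (TGACGTCA; 1.85%), the NF-kB letters (GGGA, any letter, TTTCC; 0.558%), the STAT letters (TTCNNNGAA; 7.66%), the C/EBP letters (TTGCGCAA; 0.151%) or a MEF2 box (2.99%). GC content was 59.3% at the median of the members' windows and 58.7% over all. A match is a run of letters and not a bound site, and elements farther from the start were not searched.

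Secreted ligands and proteins that bind ligands made up 7 members. IGFBP2, which binds insulin-like growth factors outside the cell, stood at 121 and 94.9 CPM on day 16, 28.1 and 41.6 on day 23, 25.9 and 32 on day 31, 384 and 352 on day 38, and 97.3 and 77.7 on day 45. It was therefore higher on day 16 than on days 23 and 31, where it was lowest, and day 45 returned to near the day 16 level. IGFBP5, a second member of that family, stood at 238 and 191 CPM on day 16, 333 and 375 on day 23, 381 and 353 on day 31, 796 and 789 on day 38, and 384 and 369 on day 45. From day 23 to day 45, the days other than day 38 lay within a narrow band. IGFBP2 (chr2:216632828-216664436, plus strand, GRCh38, GENCODE annotation) and IGFBP5 (chr2:216672105-216695549, minus strand) are neighbours with 7668 bases between them. IGFBP3, which was not selected, had its low point at day 38 among the last 4 days, with 84 and 59.1 CPM on day 31, 28.1 and 32.9 on day 38 and 143 and 80.1 on day 45.

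INHA, the alpha subunit of inhibin, stood at 8.48 and 4.28 CPM on day 16, 3.02 and 7.57 on day 23, 5.81 and 4.96 on day 31, 45.6 and 57.3 on day 38, and 8.97 and 6.98 on day 45. Its day 38 value was 5.08 times the highest other library, the second-largest ratio of all members. The partner subunit followed another course: INHBA, the beta A chain shared by activin A and inhibin A, had 0.53 and 2.93 CPM on day 16, 4.53 and 4.69 on day 23, 10.4 and 14.1 on day 31, 25.5 and 25.3 on day 38, and 79.6 and 61.8 on day 45. INHA thus fell back at day 45 while INHBA was highest there. CXCL14, an epithelial chemokine, had 6.09 and 9.04 CPM on day 16, 4.76 and 6.25 on day 23, 5.59 and 9.18 on day 31, 30.1 and 26.9 on day 38, and 10.5 and 9.07 on day 45. Its other 8 libraries lay between 4.76 and 10.5 CPM. SOSTDC1, an antagonist of BMPs, had 9.19 and 8.77 CPM on day 38, and FSTL5, a follistatin-like protein, had 8.81 and 11.7 CPM.

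Matrix, mucin and cytoskeletal genes formed the largest group, with 9 members. AHNAK2, a very large scaffold protein, stood at 61.7 and 29.1 CPM on day 16, 18.6 and 28.4 on day 23, 17.5 and 17.2 on day 31, 431 and 477 on day 38, and 162 and 168 on day 45. At day 45 both libraries stayed above those of days 16, 23 and 31. TNC, the matrix protein tenascin C, stood at 10.3 and 1.1 CPM on day 16, 17 and 15.6 on day 23, 21.7 and 46 on day 31, 155 and 163 on day 38, and 25.1 and 39.6 on day 45. Its first day 16 library was well above the second, and days 31 and 45 overlapped. SPP1, the secreted phosphoprotein osteopontin, stood at 0 and 0 CPM on day 16, 2.21 and 4.45 on day 23, 8.77 and 5.08 on day 31, 54 and 64.7 on day 38, and 13.1 and 14.1 on day 45. SPP1 was absent from the counts of day 16 and climbed at each later sampling up to day 38, where it was at least 155-fold over the day 16 floor. COL11A1 (a fibrillar collagen chain) had 172 and 194 CPM on day 38 and 72.5 and 74.8 on day 31. SPOCK1 (the proteoglycan testican-1) had 109 and 122 CPM on day 38 and 21.6 and 34.8 on day 31. OLFML2A (a secreted olfactomedin-like protein) had 138 and 121 CPM on day 38 and 14.6 and 27.5 on day 31. KANK4 and ACTG2 were low. KANK4, a cytoskeletal adaptor, had 9.97 and 10.7 CPM on day 38, and ACTG2 had 8.23 and 7.24. ACTG2, the enteric smooth muscle actin, shares much coding sequence with other actins, and its reads are uncertain for that reason.

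MUC5AC, a gel-forming mucin of goblet cells at chr11:1157953-1201138 on the plus strand, had the largest ratio of all members, 10.4 times. MUC5AC stood at 0 and 0 CPM on day 16, 0.348 and 0.842 on day 23, 1.64 and 0.868 on day 31, 26.6 and 20.6 on day 38, and 0.414 and 1.98 on day 45. Its reads were thus nearly confined to the 2 libraries of day 38, with at least 61.8-fold more there than the day 16 floor. MUC5B, the other gel-forming airway mucin, had 0.795 and 3.54 CPM on day 16, 0.581 and 1.8 on day 23, 1.21 and 4.96 on day 31, 15.3 and 12.4 on day 38, and 91.8 and 45.2 on day 45. The 2 mucins differed in course: MUC5B kept rising to day 45, where MUC5AC was back under 2 CPM. Among the other goblet and club cell markers, BPIFB1 was at 0 counts at day 38, and the summed level of the 8-gene list was 8.11 and 14.8 CPM on day 31, 49.4 and 38.3 on day 38 and 131 and 64.5 on day 45. MUC5AC was the most abundant gene of that list at day 38. The part of such cells in the MUC5AC values was not tested.

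**Figure D3:**
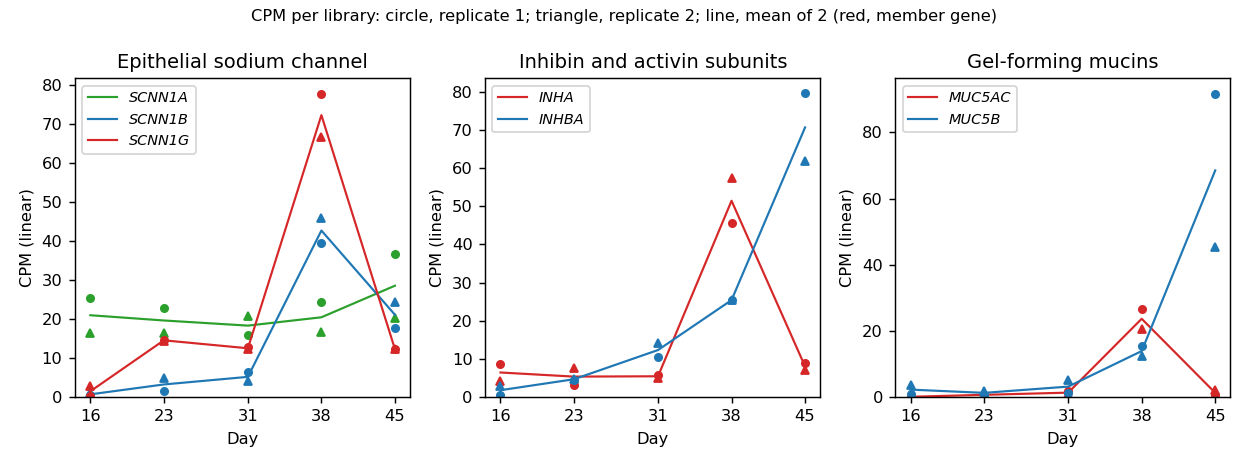
CPM against day (linear axes from 0, both replicates as points, mean as a line) for member genes (red) and related genes outside the selection. SCNN1B peaked with SCNN1G at day 38 whereas SCNN1A stayed near 20 CPM up to that day, and INHBA and MUC5B were highest at day 45, after INHA and MUC5AC had fallen back.

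Channels and surface receptors added 7 members. SCNN1G, the gamma subunit of the epithelial sodium channel, stood at 0.132 and 2.69 CPM on day 16, 14.6 and 14.3 on day 23, 12.7 and 12.2 on day 31, 77.7 and 66.7 on day 38, and 12.3 and 12.2 on day 45. After day 16 all 6 libraries outside day 38 lay between 12.2 and 14.6 CPM, and day 38 stood apart at 4.55 times the highest of them. The channel needs alpha, beta and gamma subunits for full activity. SCNN1B, the beta subunit, had 0.397 and 0.855 CPM on day 16, 1.39 and 4.93 on day 23, 6.25 and 3.97 on day 31, 39.4 and 45.8 on day 38, and 17.7 and 24.4 on day 45. SCNN1A, the alpha subunit, had 25.4 and 16.4 CPM on day 16, 22.9 and 16.2 on day 23, 15.9 and 20.6 on day 31, 24.2 and 16.6 on day 38, and 36.7 and 20.2 on day 45. SCNN1B thus shared the day 38 peak but missed the rule, and SCNN1A did not show a peak at that day. CD300A, an inhibitory receptor best known from leukocytes, had 5.83 and 7.7 CPM on day 16, 0 and 0 on day 23, 3.73 and 2.73 on day 31, 26.6 and 24 on day 38, and 11.2 and 11.8 on day 45. At 0 counts in both day 23 libraries, it was at least 71.4-fold over that day's floor at day 38. Of the haematopoietic marker list, CD14, TYROBP, CD3E, HBA1 and HBG1 were among the genes at 0 at day 38, PTPRC, the pan-leukocyte marker, was at 0.484 and 0.548 CPM, and the list summed to 14.1 and 8.0 CPM there, of which CD68, a macrophage marker and the most abundant, had 10.3 and 4.49. On day 31 the list summed to 19.0 and 19.5 CPM. At day 38 against day 31, CD14 and CSF1R of the 6 genes tested were called lower and 0 higher, beside 6.23% and 8.80% of all genes. On day 45 the list summed to 52.4 and 57.1 CPM, with CD14, CD68 and CSF1R called higher than on day 38, beside 4.85% of all genes. The other 5 members of the group were low: EPHB1 (an ephrin receptor) had 22.5 and 22.4 CPM on day 38, GFRA2 (a co-receptor for neurturin) 17.7 and 15.9, the oxytocin receptor OXTR 10.2 and 6.91, the sodium channel SCN1A 9.0 and 7.46 and the potassium channel subunit KCNE4 6.97 and 8.33.

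Among the remaining factors and enzymes, LRRC7, the scaffold protein densin, stood at 26.2 and 27.7 CPM on day 16, 13.2 and 22.1 on day 23, 30.6 and 33.5 on day 31, 162 and 157 on day 38, and 61.4 and 66.9 on day 45. RUNX2, the transcription factor of bone formation that is also found in thyroid tumours, stood at 9.14 and 5.25 CPM on day 16, 6.04 and 7.09 on day 23, 17.4 and 16.7 on day 31, 58.4 and 68.1 on day 38, and 22.2 and 23.1 on day 45. Both stayed higher on day 45 than on day 16 in each library. SIAH3, of a family of ubiquitin ligases, had 11.8 and 9.21 CPM on day 38 and a ratio of 3.33, and HECW1, another ubiquitin ligase, 7.16 and 7.35 CPM. FHAD1 had 12.9 and 14.3 CPM, and the secreted carboxypeptidase CPA6 5.9 and 5.15 CPM with 0 counts in both libraries of day 45, at least 15.2-fold under day 38.

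Long noncoding RNAs were 3 of the 38 (7.89%), beside 2.90% of the 11801 genes with a RefSeq match among those that reached 5 CPM in both day 38 libraries. PTCSC3, a thyroid-enriched noncoding RNA from a locus of thyroid cancer risk, had 0 and 0 CPM on day 16, 4.41 and 5.53 on day 23, 11.5 and 8.06 on day 31, 34.5 and 39.1 on day 38, and 15.5 and 9.59 on day 45. It was at 0 counts on day 16 and at least 96.5-fold over the floor on day 38. PTCSC3 (chr14:36130677-36217284, minus strand) overlaps LINC00609 (chr14:36070427-36165288, plus strand) by 34612 bases, with no exon bases shared. The nearer edge of PTCSC3 lies 299108 bases from NKX2-1 (chr14:36516392-36521149). LINC00609 had 6.68 and 11 CPM on day 38. MIAT, a noncoding RNA found in many tissues, had 5.03 and 5.74 CPM on day 16, 18.9 and 23.9 on day 23, 24 and 21.5 on day 31, 49.4 and 54.9 on day 38, and 16.4 and 12.5 on day 45. Its exons share 13.5% of their bases with genes on the opposite strand. In all, 14 members share exon bases with such a gene, 5 of them over 10% (up to 14.1%, FHAD1), and as no strand setting is given, reads over those bases cannot be assigned to either gene.

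**Figure D4:**
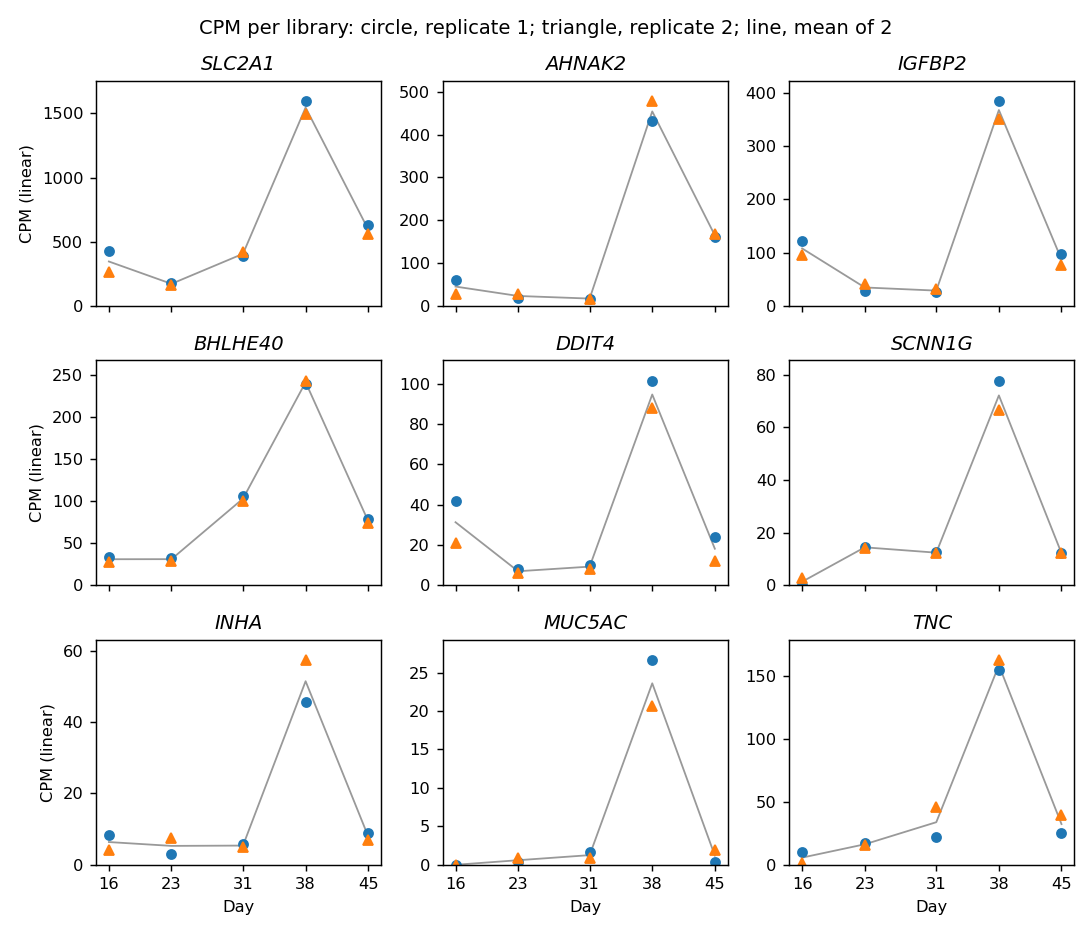
CPM against day for 9 members (linear axes from 0), with replicate 1 as circles, replicate 2 as triangles and the mean of both as a line. AHNAK2 and SLC2A1 kept part of their rise at day 45, and SCNN1G, INHA and MUC5AC returned to or near their day 31 level.

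Whether members had moved before day 38, or stayed displaced after it, was asked with comparisons between other days. The rule also set a limit on the values of those days, so these tests are not independent of the choice of members. Their fit took its estimate of spread from all 10 libraries, those of day 38 included. At day 45 against day 31, 10 of the 38 were called higher (26.3%) and 1 lower (2.63%) by edgeR at an adjusted p of 0.05, beside 11.3% and 11.1% of all 21014 genes tested. The median log2 change was 0.64 over the members and 0.01 over all genes, and 30 members were above 0. Without TMM factors, the higher share of all calls falls from 50.3 to 35.8% with a median shift of -0.14 over all genes, and 8 members are called higher and 2 lower. All 38 passed the filter of at least 5 counts in at least 2 libraries, and would have passed it on libraries outside day 38. The rule asks for 5 CPM in both day 38 libraries, which 12094 genes reached. The shares over all genes, here and for day 31 against day 16, include less abundant genes and were not matched for abundance. AHNAK2 rose by 3.41 (SE 0.22, edgeR adjusted p = 1.83e-14), IGFBP2 by 1.76 (SE 0.18, edgeR adjusted p = 1.78e-09) and LRRC7 by 1.17 (SE 0.20, edgeR adjusted p = 4.16e-05) on the log2 scale. CD300A rose by 1.99 (SE 0.47, edgeR adjusted p = 0.00178), and SLC2A1 by 0.72 (SE 0.14, edgeR adjusted p = 0.000169). In each of these 5 the libraries of the 2 days did not overlap. The SLC2A1 call was lost when a log2 change of at least 1 was required, and the other 4 held under all alternatives. The remaining 6 calls were each lost under at least 2. DDIT4 rose by 1.12 (SE 0.32, edgeR adjusted p = 0.00867), a call lost without the second day 31 library or the first day 45 library. OLFML2A rose by 1.27 (SE 0.32, edgeR adjusted p = 0.00279), which was lost under DESeq2 and without the first day 31 library. SPOCK1 rose by 0.71 (SE 0.25, edgeR adjusted p = 0.0359) and SPP1 by 1.13 (SE 0.37, edgeR adjusted p = 0.0233), and both lost their calls without TMM factors. The SPOCK1 call was also lost under DESeq2, with a log2 change of at least 1 required, and without the first day 31 or second day 45 library, and the SPP1 call in a fit of the 4 libraries alone and without the second library of day 31 or of day 45 or either of day 38. Over all alternatives the log2 change ranged from 0.55 to 1.54 for DDIT4, from 0.85 to 1.78 for OLFML2A, from 0.35 to 1.08 for SPOCK1 and from 0.79 to 1.56 for SPP1. HECW1 (0 and 0.372 CPM on day 31, 1.79 and 2.5 on day 45, edgeR adjusted p = 0.0319) and CPA6 (1.1 and 0.744 CPM on day 31, 0 and 0 on day 45, edgeR adjusted p = 0.0312), the member called lower, rest on a few counts. Each lost its call in a fit of the 4 libraries alone, without the first day 31 library and without either day 38 library, HECW1 also without the second day 45 library and CPA6 without either. BHLHE40, TNC, MUC5AC, SCNN1G and INHA were not called, with log2 changes of -0.27, 0.11, 0.13, 0.14 and 0.72.

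Days 31 and 16 are both labelled c-AMP, but by the methods day 16 cells came from basal medium, so their comparison spans the cAMP treatment. At day 31 against day 16, 13 members were called higher (34.2%) and 4 lower (10.5%), beside 7.00% and 5.87% of all genes. The median change was 0.17 over the members and -0.01 over all genes, and stays at 0.17 with the 8 members at or under the floor on 1 of the days set to their bounds. SCNN1G rose by 3.01 (SE 0.47, edgeR adjusted p = 1.07e-05), TNC by 2.53 (SE 0.41, edgeR adjusted p = 1.82e-05), MIAT by 2.0 (SE 0.31, edgeR adjusted p = 1.27e-05) and BHLHE40 by 1.66 (SE 0.16, edgeR adjusted p = 1.7e-09). The sizes for SCNN1G and TNC depend on the day 16 libraries: SCNN1G changed by 2.1 without the first and 6.37 without the second, and TNC by 4.82 without the first and 1.67 without the second, with both calls held. RUNX2 rose by 1.19 (SE 0.31, edgeR adjusted p = 0.00677), COL11A1 by 0.76 (SE 0.19, edgeR adjusted p = 0.00404) and IGFBP5 by 0.71 (SE 0.12, edgeR adjusted p = 5.89e-05), and RUNX2 and COL11A1 lost their calls without the second day 16 library, RUNX2 also in a fit of the 4 libraries alone. COL11A1 and IGFBP5 also lost theirs when a log2 change of at least 1 was required. A further 6 were at 0 counts in both day 16 libraries. For these the fold is a lower bound: PTCSC3 was at least 25.6-fold higher (edgeR adjusted p = 5.47e-09), SPP1 at least 18.1-fold (edgeR adjusted p = 2.13e-08) and KCNE4 at least 6.41-fold (edgeR adjusted p = 0.00195). The other 3 were called from a few counts. On day 31 MUC5AC had 1.64 and 0.868 CPM, PCK1 had 0.877 and 1.24 CPM, and ACTG2 had 3.62 and 0 CPM, with all its reads in 1 library. Without either day 16 library the ACTG2 and PCK1 calls were lost, as they were without the day 31 library that held most of the reads, and PCK1 also without either day 38 library. In a fit of the 4 libraries alone MUC5AC, PCK1 and ACTG2 all lost their calls, and ACTG2 lost it under DESeq2.

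The 4 that fell by day 31 were IGFBP2, at -1.97 (SE 0.18, edgeR adjusted p = 3.49e-10), DDIT4, at -1.8 (SE 0.31, edgeR adjusted p = 6.36e-05), AHNAK2, at -1.44 (SE 0.21, edgeR adjusted p = 5.5e-06), and HILPDA, at -1.17 (SE 0.40, edgeR adjusted p = 0.0499). Without the first day 16 library the change of AHNAK2 was -0.84, with the call held. HILPDA was close to the threshold and lost its call under DESeq2, with edgeR's default low-count filter, without TMM factors, in a fit of the 4 libraries alone, and without either library of days 16 and 38 or the first of day 31. IGFBP2, DDIT4 and AHNAK2 were then called higher at day 45 against day 31, so the calls of these 3 changed direction, with the DDIT4 rise lost under 2 alternatives. HILPDA moved the same way without passing, at 1.08 (SE 0.40, edgeR adjusted p = 0.0505). SPP1 was called higher in both comparisons. These 2 comparisons share the day 31 libraries, so a deviation in those libraries would push the 2 changes in opposite directions. The day 23 libraries are in neither comparison. They had 28.1 and 41.6 CPM for IGFBP2, 8.01 and 6.01 for DDIT4, and 18.6 and 28.4 for AHNAK2.

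**Figure D5:**
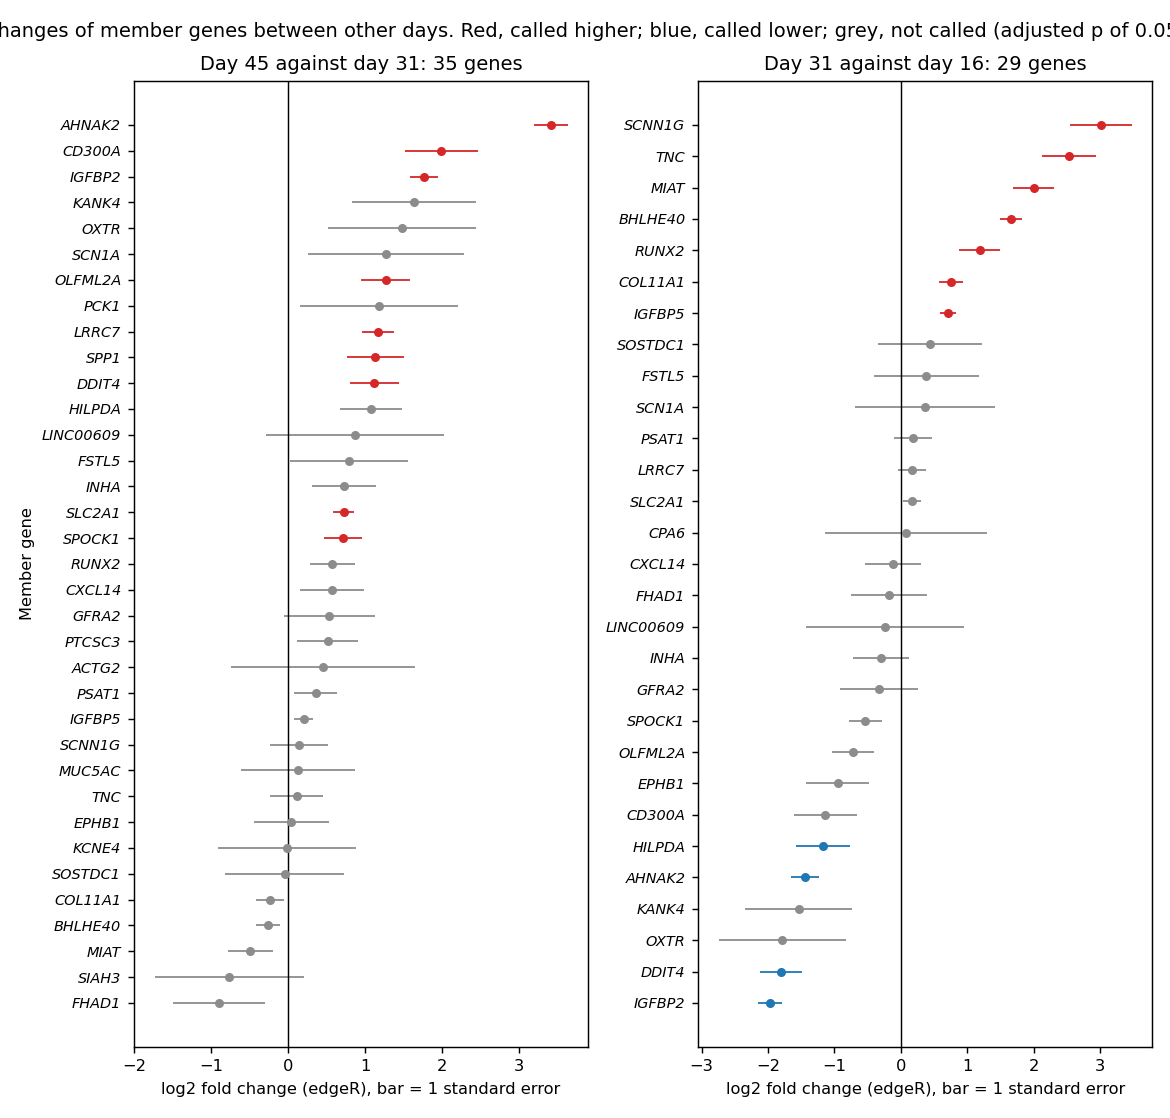
Log2 fold change of member genes with 1 standard error (edgeR) for day 45 against day 31 (left, 35 genes) and day 31 against day 16 (right, 29 genes), ordered by size, with red for called higher, blue for called lower and grey for not called. IGFBP2, DDIT4 and AHNAK2 are blue on the right and red on the left, and members at or under 3 counts in both libraries of 1 of the days are left out.

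For the comparisons with day 38, which the rule used, 33 members were called higher against day 31 and 26 were called lower at day 45, beside 8.80% and 6.35% of all genes, and nothing is read from these counts. The other pathway lists, whose genes outside the 38 were not chosen by day 38, took several courses. Over all genes, 8.80% were called higher and 6.23% lower at day 38 against day 31, and 4.85% and 6.35% at day 45 against day 38. Glucocorticoid targets numbered 8 of 15 called higher and 0 lower at day 38 against day 31 (FKBP5 from 36.5 and 42.4 CPM on day 31 to 127 and 147 on day 38), and 6 higher and 1 lower (DUSP1) at day 45 against day 38, with FKBP5 at 117 and 123 CPM. TGF-beta and activin targets had 8 of 12 higher and 2 lower (SMAD7 and FN1), then 1 higher and 3 lower. Thyroid genes had 8 of 17 higher and 0 lower, then 2 higher (TG and DUOX2) and 4 lower (IYD, NKX2-1, FOXE1 and HHEX). Chemokines and cytokines other than CXCL14 had 9 of 22 tested higher and 0 lower, then 10 higher and 0 lower. NF-kB genes had 3 of 14 higher and 1 lower, then 9 higher and 0 lower, and immediate early genes 2 of 16 higher and 1 lower, then 10 higher and 4 lower. Among these lists, hypoxia and glycolysis was the one whose summed level in both day 38 libraries exceeded all 8 other libraries, by 1.75 times without SLC2A1, which the day 38 rule chose, and by 1.85 times with it. Median log2 changes, first day 38 against day 31 and then day 45 against day 38, were 0.78 and 0.53 for glucocorticoid targets, 0.98 and -0.15 for TGF-beta and activin targets, and 1.17 and 0.01 for thyroid genes. They were 1.19 and 1.71 for chemokines and cytokines, 0.17 and 1.39 for NF-kB genes, and -0.01 and 1.0 for immediate early genes.

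The smaller counts were as follows, beside 8.80% of all genes called higher and 6.23% lower at day 38 against day 31. At day 45 against day 38 these shares were 4.85% and 6.35%. Nothing is read from counts near these shares. Acute phase and complement genes had 3 of 15 tested higher and 2 lower at day 38 against day 31, then 5 higher and 0 lower at day 45 against day 38. Interferon-stimulated genes had 6 of 23 higher and 0 lower, then 6 higher and 0 lower. Cell cycle genes had 1 of 15 higher (TOP2A) and 2 lower (MCM2 and MCM5), then 0 higher and 3 lower, and proteases and antiproteases 5 of 20 tested higher and 0 lower, then 2 higher and 1 lower. The medians were 0.54 and 1.71 for acute phase, 0.44 and 0.69 for interferon-stimulated, 0.47 and -0.57 for cell cycle genes, and 0.63 and 0.44 for proteases. Over the 10 counts of 0 that edgeR gave in these lists other than hypoxia and glycolysis, 3 genes had an unadjusted p under 0.05, and DESeq2 called 0.

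Markers of other cell types moved between the same days, some up and some down. Of 16 such lists, 3 had a summed level in both day 38 libraries above all 8 others, and 0 reached the 2 times that the rule asked of members. These were C cell and endocrine genes (1.23 times, 94.9 and 87.4 CPM on day 38 and 71.1 and 67.4 on day 45, CALCB the most abundant), basal airway genes (1.09 times, ITGA6 the most abundant) and skeletal muscle genes (1.06 times, PAX7 the most abundant, with MYOD1, MYF5, MYF6 and MYH8 at 0 at day 38). Of 7 C cell and endocrine genes tested, CALCA and CALCB were called higher and 0 lower at day 38 against day 31. Of the 8 basal airway genes, KRT17 alone was called higher and 0 lower. ITGA6 changed by -0.07 on the log2 scale (SE 0.16, edgeR adjusted p = 0.84). Of 12 skeletal muscle genes tested, PAX7, DES, TNNT3 and RYR1 were called higher and 0 lower at day 38 against day 31. Over all genes tested, 8.80% were called higher and 6.23% lower. Smooth muscle genes, of which ACTG2 is a relative, summed to 56.1 and 50.8 CPM on day 31, 115 and 128 on day 38 and 206 and 176 on day 45, and fibroblast genes, which share matrix functions with COL11A1 and TNC, to 2052 and 2401 CPM on day 31, 4077 and 4466 on day 38 and 4543 and 3696 on day 45. Of the 7 smooth muscle genes, ACTA2, CNN1, TAGLN, LMOD1 and MYOCD were called higher at day 38 against day 31, and the other 2 were not called. Of the 10 fibroblast genes, COL1A1, COL1A2, COL3A1 and PDGFRA were called higher and LUM and POSTN lower in that comparison, with the shares over all genes as given above. The smooth muscle and fibroblast sums were both above their day 31 level at day 45 too. Of the heart muscle genes, 9 of 16 tested were called higher and 1 (TTN, the most abundant) lower at day 38 against day 31, beside 8.80% and 6.23% of all genes. Among those called higher was the ryanodine receptor RYR2, with 36.3 and 44.8 CPM on day 31, 177 and 204 on day 38 and 209 and 229 on day 45. MYL2 was at 0 on day 38, and the heart list summed to 1927 and 1875 CPM on day 31, 1305 and 1571 on day 38 and 1268 and 1462 on day 45. The part of other cells in the members' values was not tested.

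The day 38 libraries also differed in composition. Their TMM factors, which correct for a few abundant transcripts, were 0.896 and 0.942, the lowest of the 10 (others 0.951 to 1.07), so that CPM understates day 38 relative to the scale of the tests. With CPM scaled by these factors, 49 genes meet the rule, and with totals that leave out RN7SK, an abundant small nuclear RNA, 40 do, and both sets hold all 38.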

How the data were processed

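Per the labels and the study's methods, the authors trimmed reads with Trimmomatic, aligned them with HISAT2 and counted them with HTSeq on Ensembl GRCh38.p13 (tool versions and strand setting not given in the sources used here). They deposited raw counts per gene symbol, 1 library per file. CPM and all tests were computed from those counts. The 21014 genes that reached 5 counts in 2 or more libraries were tested with edgeR 4.0.16 in R 4.3.3 (limma 3.58.1; TMM factors, quasi-likelihood test, 1 mean per day over all 10 libraries, 5 residual degrees of freedom), with Benjamini-Hochberg adjustment over all genes and a threshold of 0.05. DESeq2 1.42.0 was an alternative. The fit was tested on simulated data, and no value given here rests on that test. Standard errors are approximate, from the F statistic.

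The members, the 27 gene lists and the comparisons were chosen with earlier results of these data known. The roles by which members are grouped, and the related genes SCNN1A, SCNN1B, INHBA, MUC5B and IGFBP3, were chosen after their values were seen. Named members were the 10 with the highest lower day 38 CPM, the 10 with the largest ratio, the 6 largest called changes in each direction from day 31 to day 45 and from day 16 to day 31, members of a list, those at the limit and neighbours; others are given by value. Counts of 3 were taken as the floor, and floors cover counting error only. The replicates are 2 numbered samples a day, and p-values measure the spread between them. Replicate libraries differed by more than sampling noise (chi-square 8.38 to 13.7 for each degree of freedom). In all, 1 member and 1 marker gene are not reported here by name or drawn, and stay in the counts and sums.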

Additional observations from a re-analysis of the deposited data

How the results depend on the processing

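With 2 libraries a day, the fit of all 10 libraries has 5 residual degrees of freedom and the alternatives that leave out libraries have fewer, and members under about 10 CPM at day 38 rest on few reads outside that day. The rule gave 94 genes with a fold limit of 1.5, 7 with a limit of 3 and 80 with the mean of a day in place of the lowest and highest library. Leaving out 1 library at a time gave 38 to 60 genes. The 1 member called lower at day 45 against day 31 became 2 without TMM factors and 0 in a fit of only the 4 libraries, and leaving out 1 library gave 0 to 1. With a log2 fold change of at least 1 required, the genes called among all tested were 2730 at day 45 against day 31, 1533 at day 31 against day 16, 1691 at day 38 against day 31 and 1202 at day 45 against day 38. Leaving out 1 library gave 3375 to 5224, 1726 to 2868, 1818 to 3679 and 1216 to 2866 for these comparisons, beside 4719, 2705, 3160 and 2353 with all 10. Of the 28 calls of members at day 45 against day 31 and at day 31 against day 16, 14 held under all 18 alternatives, 0 changed direction, and the other 14 lost the call under at least 1. The cause was not tested. Of the hypoxia and glycolysis genes outside the members, 9 were called higher at day 38 against day 31 under each alternative run for this count, which was added after the data were seen, and 7 or 8 were called lower at day 45 against day 38. These are counts, and whether they are made up of the same genes was not compared.

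No pairing of the libraries by replicate number was seen over all genes, but 2 libraries a day cannot exclude it. The correlation of replicate differences between days ran from -0.041 to 0.041, with 0 of 10 pairs of days over 0.1. With the replicate number as a replicate block, the members called at day 45 against day 31 were 11 higher and 1 lower, at day 31 against day 16 were 13 higher and 6 lower, and all 28 calls of members held. Over all genes, the block gave more calls in each comparison. At day 45 against day 31 these were 2520 higher and 2474 lower, beside 2376 and 2343 without it.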
